A study of Homo sapiens with 12 samples.

Results

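The E2F transcription factors and the RB family of pocket proteins are described here in 2 ovarian cancer cell lines treated with BAY-850. The 10 genes were chosen by name: the activator E2Fs E2F1, E2F2 and E2F3, the canonical repressor E2Fs E2F4 and E2F5, the atypical repressor E2Fs E2F7 and E2F8, and the pocket protein genes RB1, RBL1 (p107) and RBL2 (p130). All 10 had a row in the deposited table of 26475 gene symbols, and all 10 passed the filter on low counts in every comparison. PA-1 is a human line from an ovarian teratocarcinoma, and SK-OV-3, called SK-OV3 here, is a human line from an ovarian adenocarcinoma. Cells of each line received 5 µM BAY-850, an inhibitor of the chromatin reader protein ATAD2, for 48 h, or vehicle (DMSO). The 4 groups were PA-1 with DMSO, PA-1 with BAY-850, SK-OV3 with DMSO and SK-OV3 with BAY-850, each with 3 libraries from biological replicates. Each kind of tumour was represented by 1 line, so a difference between the lines is a difference between these 2 lines. By the study's methods PA-1 was grown in DMEM and SK-OV3 in RPMI medium, so line and medium cannot be told apart.

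Activator E2Fs, bound to DNA with a DP partner, switch on genes needed to enter S phase. Pocket proteins hold E2Fs in check until cyclin-dependent kinases phosphorylate them, and E2F4 and E2F5 act largely as the DNA-binding arm of pocket protein repressor complexes. E2F7 and E2F8 bind without a DP partner and repress many of the same genes later in the cycle, and the genes for E2F1, E2F2, E2F7 and E2F8 are themselves known E2F targets.

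The libraries held between 34544481 and 51840249 counts. SK-OV3 with BAY-850 replicate 3 stood apart: it held the highest total but only 15629 genes with a count, against 17425 to 18414 in the other 11 libraries. Of 9762 genes with at least 10 CPM (counts per 1000000 counts of a library after TMM scaling) in its group, 1.49% were at least 1.5-fold lower in it than in the mean of the other replicates of the group, against at most 0.174% in any other library. The 6 teratocarcinoma markers summed to 1367 to 1570 CPM in PA-1 with DMSO and 1552 to 1644 CPM with BAY-850, and to 6.32 to 10.4 CPM in SK-OV3. The 8 epithelial markers summed to 4350 to 4649 CPM in SK-OV3 with DMSO and 3200 to 3681 CPM with BAY-850, and to 923 to 980 CPM and 1006 to 1054 CPM in PA-1. They did not all mark SK-OV3: by the means with DMSO, ERBB2 alone stood at 2417 CPM there, KRT8 was at similar levels in both lines (599 CPM in SK-OV3 and 532 in PA-1), KRT18 was higher in PA-1 (335 CPM) than in SK-OV3 (266 CPM), and MUC16 stood at 0.738 CPM in SK-OV3. The 4 fibroblast-associated genes, led by the collagen gene COL1A1, which tumour lines can also express, summed to 180 to 189 CPM in SK-OV3 with DMSO and 88.4 to 117 CPM with BAY-850. In PA-1 they went the other way, from 445 to 559 CPM with DMSO to 586 to 637 CPM with BAY-850, and DCN was at or near 0 in all 12 libraries. The epithelial and fibroblast sums thus moved with treatment without overlap, down in SK-OV3 and up in PA-1, while 4 leukocyte markers summed to less than 1 CPM in every library. Their part in the results was not tested.

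The 100 bases before the RefSeq transcription start (GRCh38.p14) are shown for E2F1, E2F2 and E2F3, whose RNA fell or was near the threshold in SK-OV3. They are also shown for RBL1, E2F4 and E2F7, whose RNA did not pass the test in that line with all libraries. All are printed 5′ to 3′ on the strand of the gene, and capitals mark E2F motif words, which are TTTCCCGC, TTTCGCGC, TTTGCCGC and TTTGGCGC on either strand.
E2F1, chr20:33686386-33686485, minus strand: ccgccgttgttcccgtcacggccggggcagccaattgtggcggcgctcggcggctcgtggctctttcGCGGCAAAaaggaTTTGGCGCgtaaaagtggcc
E2F2, chr1:23531234-23531333, minus strand: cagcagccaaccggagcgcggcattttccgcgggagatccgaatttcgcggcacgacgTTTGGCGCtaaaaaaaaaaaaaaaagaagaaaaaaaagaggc
E2F3, chr6:20401779-20401878, plus strand: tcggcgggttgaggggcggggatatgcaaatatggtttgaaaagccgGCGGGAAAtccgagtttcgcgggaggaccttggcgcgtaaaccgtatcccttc
RBL1, chr20:37095998-37096097, minus strand: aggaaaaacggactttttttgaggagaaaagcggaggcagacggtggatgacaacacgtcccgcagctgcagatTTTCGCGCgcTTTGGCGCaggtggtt
E2F4, chr16:67192055-67192154, plus strand: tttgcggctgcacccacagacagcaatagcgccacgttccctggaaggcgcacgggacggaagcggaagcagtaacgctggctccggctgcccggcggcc
E2F7, chr12:77065570-77065669, minus strand: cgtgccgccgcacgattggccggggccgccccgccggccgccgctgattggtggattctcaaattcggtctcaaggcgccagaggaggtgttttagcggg

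The promoters of all 3 activators held a motif word close to the start. E2F1 held 2 that do not overlap, from position -33 to -26 and from -20 to -13, where -1 is the last base before the start. E2F2 held 1 from -42 to -35, and E2F3 held 1 from -53 to -46 at its first RefSeq start and none at its second. RBL1 held 2 that do not overlap, from -26 to -19 and from -16 to -9. No word was found in the 250 bases before the starts of E2F4, E2F7 and RBL2, which says only that these letters are not in those windows. Of 35116 RefSeq promoter entries, 2.79% held at least 1 of the words in the same 250 bases. RefSeq entries for 8 of the 10 genes were in the table, E2F5 and E2F8 had none, and the entry of RB1, which starts 172724 bases inside the gene as GENCODE annotates it, was not used. A match is a string of letters and not a measured binding site.

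The repertoire of E2F RNA differed between the lines before any BAY-850. Levels of different genes were compared per length, as CPM divided by the kilobases of the longest GENCODE transcript (RPKM). In PA-1 with DMSO the order was E2F4 (17.9 RPKM), E2F5 (14.5), E2F1 (7.03), E2F3 (4.86), E2F7 (2.29), E2F8 (1.45) and E2F2 (0.452), and no neighbours overlapped between libraries. In SK-OV3 with DMSO the order was E2F4 (31.1 RPKM), E2F1 (19.9), E2F3 (14.02), E2F7 (10.6), E2F5 (4.53), E2F8 (2.48) and E2F2 (0.990), again with no overlap between neighbours. E2F5 thus ranked just under E2F4 in PA-1 and below E2F7 in SK-OV3. Divided by the length of all exons joined, E2F4 and E2F5 overlapped in PA-1 with DMSO, with means of 13.1 and 12.4 RPKM, and the order of the means stayed as given in both lines.

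Compared with PA-1 under DMSO, 8 of the 10 genes were higher and 1 was lower in SK-OV3 at an adjusted p under 0.05. These shares stand beside a background in which 40.1% of 16070 genes tested were called higher and 40.2% lower, so a difference between the lines was common among all genes. E2F7 differed most, at 11.7, 13.8 and 13.8 CPM in PA-1 with DMSO and 54.1, 61.1 and 67.1 CPM in SK-OV3 with DMSO, a log2 difference of 2.21 (SE 0.098, adjusted p = 3.41e-10). E2F3 (log2 difference 1.52, SE 0.074), E2F1 (1.496, SE 0.078), RBL2 (1.44, SE 0.075) and E2F2 (1.13, SE 0.201) were also higher in SK-OV3, as were E2F4 (0.79, SE 0.066), E2F8 (0.77, SE 0.198) and RBL1 (0.32, SE 0.113, adjusted p = 0.0194). E2F5 was the only one lower in SK-OV3, with a log2 difference of -1.69 (SE 0.067, adjusted p = 1.12e-10). RB1 stood at 84.3 to 94.9 CPM in PA-1 and 82.5 to 100 CPM in SK-OV3, and its log2 difference of 0.07 (SE 0.078, adjusted p = 0.419) did not pass the test. Replicates of the lines did not overlap for 9 of the 10 genes, against 82.3% of all genes tested. The call of RBL1 was lost without PA-1 DMSO replicate 1 or SK-OV-3 DMSO replicate 2 (adjusted p = 0.0895 and 0.109), and RB1 passed without SK-OV-3 DMSO replicate 1 (log2 difference 0.16, adjusted p = 0.0375). The DMSO libraries of this comparison are the controls of the treatment comparisons as well.

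**Figure D1:**
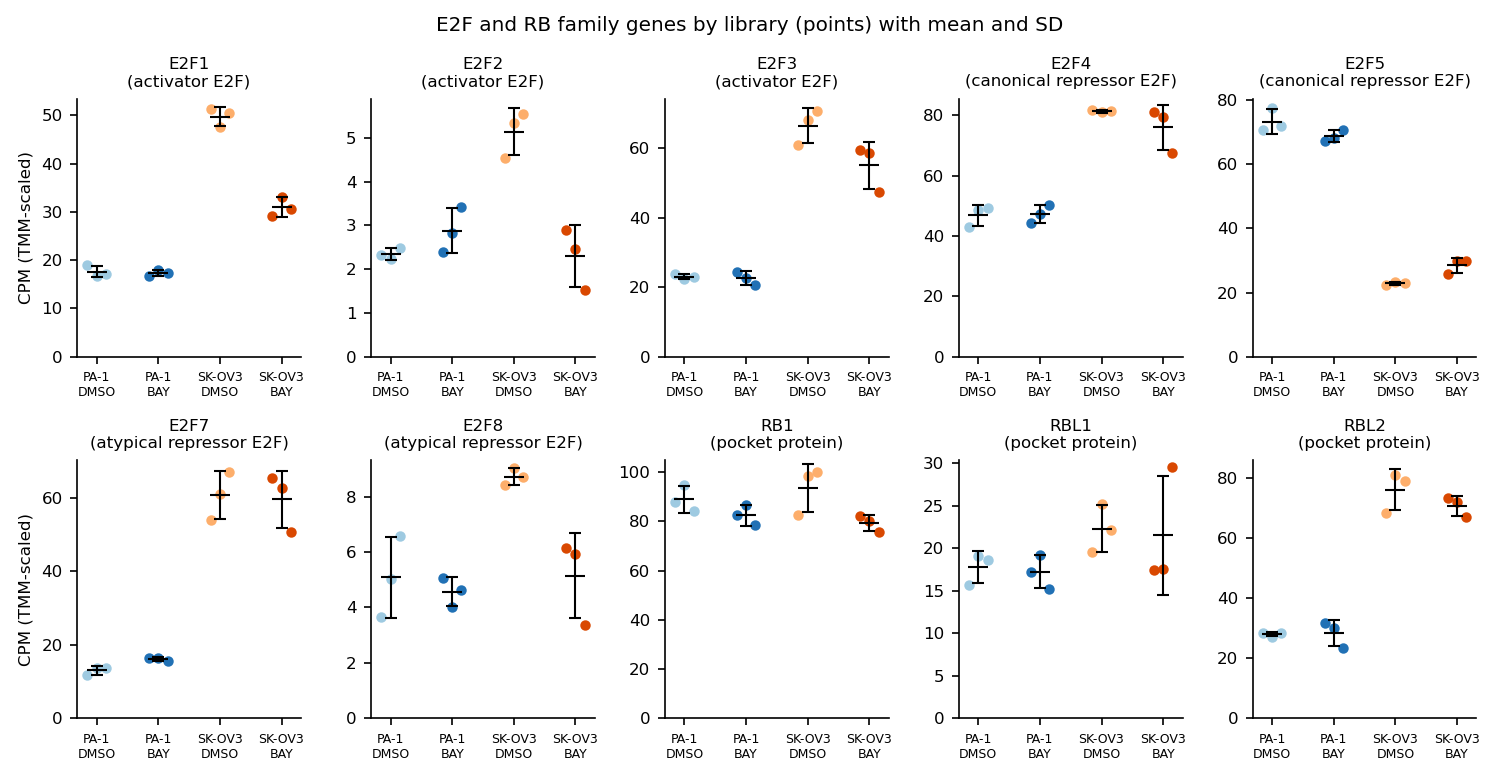
Levels of the 10 genes in CPM (TMM-scaled, vertical axis from 0) in each of the 12 libraries, with 1 panel per gene and the 4 groups on the horizontal axis. Points are libraries, and the dash and bars are the mean and SD (n = 3); E2F1 falls in SK-OV3 from 47.5 to 51.2 CPM with DMSO to 29.1 to 33.1 CPM with BAY-850, while the PA-1 points stay between 16.8 and 18.9 CPM.

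In SK-OV3 cells, the RNA of the activators E2F1 and E2F2 and of the atypical repressor E2F8 fell with BAY-850, and that of the canonical repressor E2F5 rose. In PA-1 cells none of the 10 genes passed the test. In SK-OV3 3 of the 10 genes were called lower, against 9.56% of 15348 genes tested, and 1 was called higher, against 10.8%. For 6 of the 10 genes the treated and control libraries did not overlap, against 38.6% of all genes tested. Over the 10 genes the log2 fold change had a median of -0.16 in SK-OV3 and -0.02 in PA-1, against -0.01 and 0.00 over all genes tested.

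E2F1, an activator E2F, stood at 51.2, 47.5 and 50.4 CPM in SK-OV3 with DMSO and at 29.1, 33.1 and 30.7 CPM with BAY-850. All treated libraries were lower than all controls, and the log2 fold change was -0.67 (SE 0.075, adjusted p = 9.94e-05), a 1.59-fold fall. The fall passed in all 15 other settings, with log2 fold changes from -0.71 to -0.62. In PA-1 the levels were 18.9, 16.8 and 17.1 CPM with DMSO and 16.8, 18.0 and 17.3 CPM with BAY-850. These ranges overlapped, and the log2 fold change was -0.02 with a 95% interval from -0.19 to 0.16 (adjusted p = 0.939). In bulk RNA, fewer cells in which a gene is active and less RNA per cell cannot be told apart.

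E2F2, the least abundant per length of the 7 E2F genes in all 4 groups, stood at 4.53, 5.34 and 5.55 CPM in SK-OV3 with DMSO and at 2.90, 2.46 and 1.53 CPM with BAY-850. Every treated library was lower than every control, with the lowest value in replicate 3, the library that stood apart. Its log2 fold change of -1.16 (SE 0.262, adjusted p = 0.00944) had the widest interval of the called genes, from -1.67 to -0.64, and rested on 82 to 214 counts per library. Without that library it was -0.94 (adjusted p = 0.00409), and it passed in all 15 other settings, with adjusted p of at most 0.0498. In PA-1 E2F2 stood at 2.31, 2.24 and 2.49 CPM with DMSO and at 2.40, 2.82 and 3.42 CPM with BAY-850. The PA-1 ranges overlapped, and the log2 fold change of 0.30 (SE 0.225, adjusted p = 0.463) did not pass.

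E2F3, the third activator, stood at 60.8, 68.2 and 70.7 CPM in SK-OV3 with DMSO and at 59.5, 58.8 and 47.4 CPM with BAY-850. The groups did not overlap, by a margin of less than the SD of either group, and the log2 fold change of -0.26 (SE 0.088, adjusted p = 0.0582) missed the threshold. It ranged from -0.32 to -0.17 over 15 other settings and passed in 5 of them, DESeq2 among these (adjusted p = 0.0250). In PA-1 its log2 fold change was -0.02 (SE 0.084, adjusted p = 0.900), and its 6 libraries lay between 20.7 and 24.5 CPM.

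**Figure D2:**
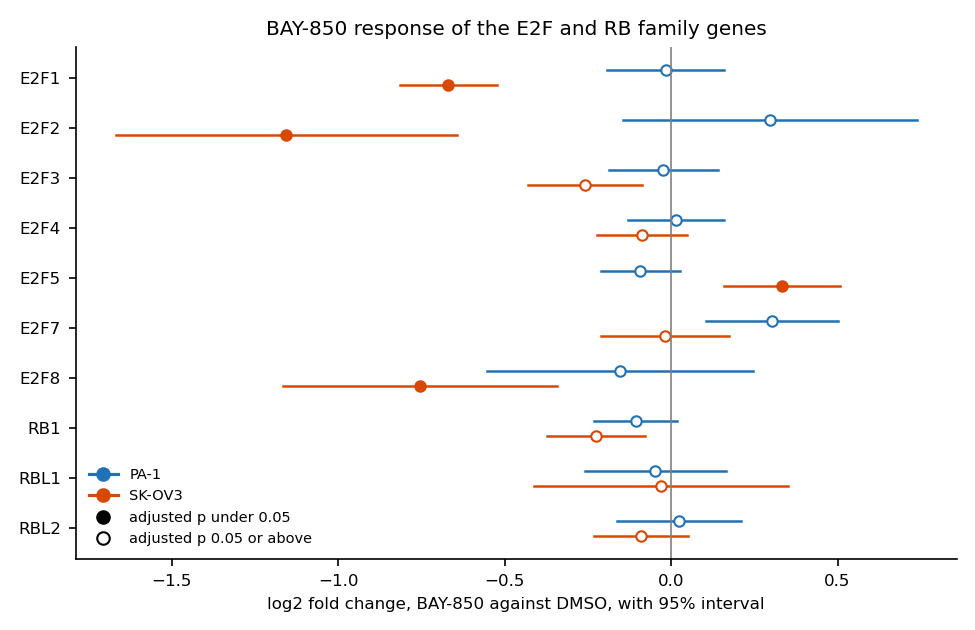
Log2 fold change of each gene with BAY-850 against DMSO (horizontal axis) with its approximate 95% interval, in PA-1 (blue) and SK-OV3 (orange). Filled points have an adjusted p under 0.05 over all genes tested; only E2F1 (-0.67), E2F2 (-1.16), E2F8 (-0.76) and E2F5 (0.33) in SK-OV3 are filled.

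Neither canonical repressor was lower with BAY-850 in SK-OV3 by the test. E2F4, the most abundant per length of the 7 E2F genes in every group, stood at 81.8, 80.9 and 81.2 CPM with DMSO and at 81.1, 79.3 and 67.4 CPM with BAY-850. Replicate 2 was just below the controls and replicate 3 well below them, and the log2 fold change was -0.09 with an interval from -0.22 to 0.05 (adjusted p = 0.411). In PA-1 E2F4 lay between 42.9 and 50.3 CPM in all 6 libraries, with a log2 fold change of 0.02 (SE 0.073, adjusted p = 0.930).

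E2F5 stood at 22.5, 23.2 and 22.9 CPM in SK-OV3 with DMSO and at 25.8, 30.0 and 29.7 CPM with BAY-850. The treated libraries were all higher, by a log2 fold change of 0.33 (SE 0.090, adjusted p = 0.0222), a rise to 1.26-fold. In PA-1, where E2F5 was 3.22-fold more abundant under DMSO, it stood at 70.5, 77.6 and 71.8 CPM with DMSO and at 67.2, 68.2 and 70.7 CPM with BAY-850. Those ranges overlapped slightly, and the log2 fold change was -0.09 (SE 0.061, adjusted p = 0.391). The rise in SK-OV3 passed in 11 of 15 other settings, and missed without SK-OV-3 DMSO replicate 1, 2 or 3 or BAY-850 replicate 2, with adjusted p from 0.0580 to 0.0903 and a log2 fold change from 0.30 to 0.35.

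Of the atypical repressors, E2F8 passed the test in SK-OV3 and E2F7 did not, a contrast between genes that was not tested. E2F8 stood at 8.43, 9.02 and 8.71 CPM in SK-OV3 with DMSO and at 6.13, 5.95 and 3.37 CPM with BAY-850. All treated libraries were lower, and replicate 3 was the lowest by a wide gap. The log2 fold change was -0.76 (SE 0.210, adjusted p = 0.0259), and without that replicate it was -0.53 (adjusted p = 0.0117). It missed the threshold without SK-OV-3 DMSO replicate 1, 2 or 3 (adjusted p = 0.0640, 0.0988 and 0.0787), with log2 fold changes from -0.77 to -0.73. The number of the 10 genes called in SK-OV3 accordingly went from 4 to 2 without SK-OV-3 DMSO replicate 2 or 3, when E2F1 and E2F2 were left. Calls over all genes also fell, from 1468 lower and 1662 higher to 788 and 993 without DMSO replicate 2. They were 859 and 1124 without DMSO replicate 3. In PA-1 E2F8 lay between 3.64 and 6.59 CPM over the 6 libraries, with a log2 fold change of -0.15 (SE 0.204, adjusted p = 0.701).

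E2F7 stood at 54.1, 61.1 and 67.1 CPM in SK-OV3 with DMSO and at 65.4, 62.7 and 50.6 CPM with BAY-850. The groups covered nearly the same range, and the log2 fold change was -0.02 with an interval from -0.21 to 0.17 (adjusted p = 0.920). In PA-1 E2F7 stood at 11.7, 13.8 and 13.8 CPM with DMSO and at 16.4, 16.5 and 15.6 CPM with BAY-850. It was the only one of the 10 genes whose PA-1 groups did not overlap, against 27.5% of 15212 genes tested, and the only one with an unadjusted p under 0.05 there (0.00936). Its log2 fold change of 0.30 (SE 0.101, adjusted p = 0.0841) missed the threshold in edgeR and in every other setting, with adjusted p from 0.0718 to 0.239. The count of 0 in PA-1 stands beside 2.48% of genes called lower and 4.65% called higher, and it was also 0 with DESeq2.

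None of the pocket protein genes passed the test in either line with all libraries. RB1, the retinoblastoma gene, stood at 82.5, 98.3 and 100 CPM in SK-OV3 with DMSO and at 82.2, 80.3 and 75.6 CPM with BAY-850. The groups did not overlap, but control replicate 1 and treated replicate 1 nearly coincided, and the log2 fold change of -0.23 (SE 0.075, adjusted p = 0.0541) missed the threshold. It passed in 5 of 15 other settings, with adjusted p from 0.00454 to 0.223 over the 15. In PA-1 RB1 lay between 78.4 and 94.9 CPM, with a log2 fold change of -0.11 (SE 0.064, adjusted p = 0.339).

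RBL1, the pocket protein most tied to cycling cells, stood at 19.6, 25.1 and 22.1 CPM in SK-OV3 with DMSO and at 17.4, 17.5 and 29.6 CPM with BAY-850. Treated replicates 1 and 2 were below all controls, and replicate 3 was above all of them. In that library RBL1 was 1.69-fold its mean in the other treated replicates, a ratio that only 0.174% of the 9762 genes of at least 10 CPM reached. With all libraries the log2 fold change was -0.03 with an interval from -0.41 to 0.35 (adjusted p = 0.934), and without replicate 3 it was -0.35 (adjusted p = 0.0356). In PA-1 RBL1 lay between 15.2 and 19.1 CPM, with a log2 fold change of -0.05 (SE 0.108, adjusted p = 0.840).

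RBL2, the pocket protein of quiescent cells, stood at 68.5, 81.0 and 79.2 CPM in SK-OV3 with DMSO and at 73.5, 72.1 and 67.2 CPM with BAY-850. The ranges overlapped, and the log2 fold change was -0.09 with an interval from -0.23 to 0.05 (adjusted p = 0.416). In PA-1 it stood at 27.2 to 28.5 CPM with DMSO and 23.6 to 31.6 CPM with BAY-850, with a log2 fold change of 0.02 (SE 0.095, adjusted p = 0.915).

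The response differed between the lines for 3 of the 10 genes by an interaction term in a fit of all 12 libraries. E2F1 (difference of the log2 fold changes, SK-OV3 minus PA-1, -0.66, SE 0.110, adjusted p = 9.60e-04) and E2F2 (-1.46, SE 0.367, adjusted p = 0.0148) responded lower in SK-OV3, and E2F5 responded higher (0.41, SE 0.097, adjusted p = 0.0100). Over all 16830 genes tested 7.77% were called lower and 6.70% higher. E2F8, called in SK-OV3 and not in PA-1, was not shown to differ between the lines (-0.61, SE 0.342, adjusted p = 0.264), nor was E2F7 (-0.33, SE 0.149, adjusted p = 0.159). The other differences ranged from -0.25 for E2F3 to 0.00 for RBL1, with adjusted p of at least 0.239. All 3 called differences passed in each of 20 other settings, including without the treated SK-OV3 replicate 3, where they were -0.66, -1.23 and 0.38.

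The balance of E2F RNA in SK-OV3 moved with these changes. The activators E2F1, E2F2 and E2F3 made up 41.4 to 42.0% of the summed RPKM of the 7 E2F genes with DMSO and 33.4 to 35.2% with BAY-850. The share of E2F4 and E2F5 was 41.5 to 43.8% with DMSO and 48.4 to 49.5% with BAY-850, and that of E2F7 and E2F8 was 14.5 to 16.5% and 15.3 to 17.8%. The first pair of shares did not overlap between the groups and the last did. The shares are parts of a whole, so a fall of the activators alone raises the others. The mean level of E2F4 in SK-OV3 was 31.09 RPKM with DMSO and 29.03 RPKM with BAY-850. That of E2F5 was 4.532 and 5.652 RPKM. By these means E2F4 fell by more than E2F5 rose, so their larger share was not a rise of their summed RNA. With BAY-850, E2F1 (11.6 to 13.2 RPKM), E2F3 (9.98 to 12.5) and E2F7 (8.82 to 11.4) overlapped with their neighbours in the order of levels in SK-OV3, where each had been apart under DMSO. With the length of all exons joined, the activator share was 46.4 to 47.0% and 37.9 to 39.9%, and E2F1 no longer overlapped with E2F3.

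In PA-1 the activator share was 23.9 to 28.0% with DMSO and 24.3 to 26.3% with BAY-850, and that of E2F4 and E2F5 was 65.4 to 68.4% and 64.6 to 67.6%. These ranges overlapped. Among the pocket proteins, RB1 made up 67.7% ± 1.57 (SD, n = 3) of the summed RPKM in PA-1 with DMSO and 50.1% ± 0.861 in SK-OV3 with DMSO, where RBL2 made up 39.9% ± 0.450 in place of 20.9% ± 1.36. With BAY-850 RB1 made up 66.2% ± 2.11 in PA-1 cells and 47.6% ± 1.80 in SK-OV3 cells. These shares are sums over chosen genes and carry no test. The counts hold 1 row for each gene, so RNA from the separate RefSeq starts of E2F3 is not told apart in the activator share.

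**Figure D3:**
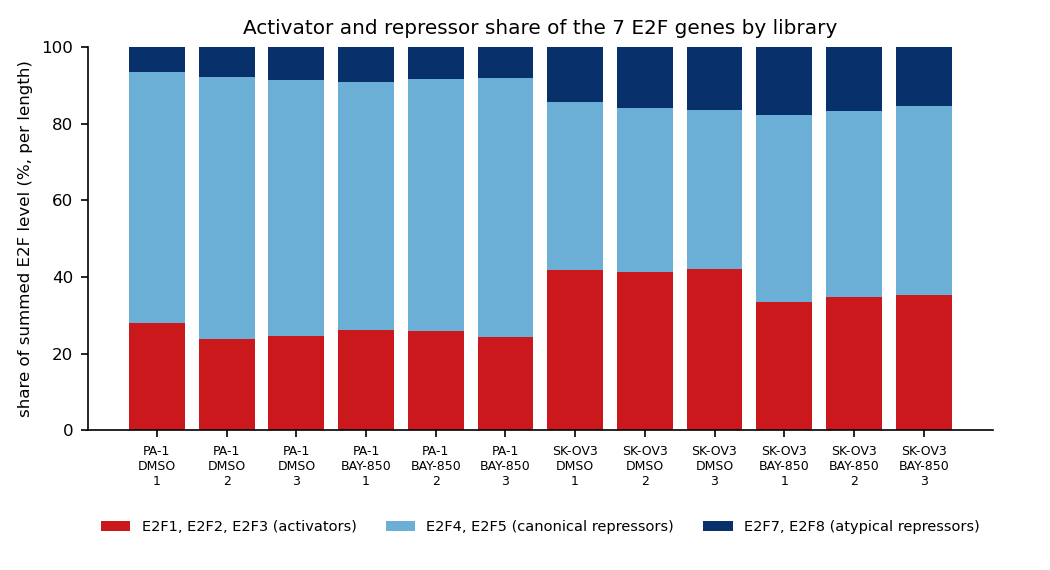
Share of the summed level of the 7 E2F genes (vertical axis, percent, per length of the longest transcript) in each of the 12 libraries (bars, labelled by line, treatment and replicate). Red is E2F1, E2F2 and E2F3, light blue E2F4 and E2F5, and dark blue E2F7 and E2F8; the red share falls from 41.4 to 42.0% with DMSO to 33.4 to 35.2% with BAY-850 in SK-OV3 and stays between 23.9 and 28.0% in PA-1.

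Among the partners of these factors, 1 DP gene and 3 of 7 genes of the MuvB group fell in SK-OV3, where 9.56% of all genes did, and 1 of the MuvB group rose in PA-1, where 4.65% of all genes did. TFDP1 encodes the main DP subunit that activator and canonical repressor E2Fs need to bind DNA. It stood at 133, 136 and 132 CPM in SK-OV3 with DMSO and at 118, 116 and 110 CPM when treated, with a log2 fold change of -0.21 (SE 0.051, adjusted p = 0.0145). In PA-1 its log2 fold change was 0.07 (SE 0.058, adjusted p = 0.529). TFDP2, the other DP gene, had a log2 fold change of -0.23 in PA-1 (SE 0.068, adjusted p = 0.0569) and of -0.03 in SK-OV3 (SE 0.063, adjusted p = 0.786), and neither passed.

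The MuvB core joins E2F4 and a pocket protein in the DREAM repressor complex, and later in the cycle it joins MYBL2 (B-MYB) and FOXM1 to switch on mitotic genes. MYBL2 fell in SK-OV3 from 199, 192 and 195 CPM to 141, 134 and 133 CPM, a log2 fold change of -0.51 (SE 0.050, adjusted p = 3.79e-05). In PA-1 MYBL2 rose from 154, 150 and 168 CPM to 176, 185 and 192 CPM, a log2 fold change of 0.23 (SE 0.061, adjusted p = 0.0343). FOXM1 fell in SK-OV3 from 64.8, 63.9 and 64.5 CPM to 43.5, 43.8 and 38.0 CPM, a log2 fold change of -0.61 (SE 0.067, adjusted p = 8.92e-05), and its log2 fold change in PA-1 was 0.11 (SE 0.057, adjusted p = 0.252). RBBP4, a histone-binding core subunit, also fell in SK-OV3 (-0.38, SE 0.061, adjusted p = 0.00123) and did not pass in PA-1 (0.07, SE 0.054, adjusted p = 0.493). The other core genes did not pass in either line: the log2 fold changes in SK-OV3 and PA-1 were -0.24 and -0.14 for LIN9, 0.10 and 0.04 for LIN37, 0.01 and -0.15 for LIN52, and -0.10 and -0.04 for LIN54.

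Upstream of the pocket proteins, 2 of 7 kinase and cyclin genes tested fell in SK-OV3 and none rose, beside 9.56% and 10.8% of all genes. CCNE2, the gene of cyclin E2 and a known E2F target, fell from 12.1, 13.2 and 13.0 CPM to 7.18, 5.97 and 6.05 CPM, a log2 fold change of -0.98 (SE 0.133, adjusted p = 3.74e-04). CDK2, the kinase that cyclin E activates, fell with a log2 fold change of -0.27 (SE 0.077, adjusted p = 0.0305). CCNE1, CCND1, CCND3, CDK4 and CDK6 had log2 fold changes from -0.15 to 0.10 there and did not pass. In PA-1, where 4.65% of all genes were called higher and 2.48% lower, 1 of 8 passed, CCND2 (cyclin D2), with a log2 fold change of 0.19 (SE 0.054, adjusted p = 0.0426), a gene at 263 CPM in PA-1 with DMSO and at no more than 73 counts in any SK-OV3 library, where it did not pass the filter.

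Of the CDK inhibitors, which block phosphorylation of the pocket proteins, 3 of 5 tested rose in SK-OV3 and 1 fell, beside 10.8% and 9.56% of all genes. CDKN1A (p21) rose from 18.2, 16.6 and 16.0 CPM to 28.1, 28.9 and 21.6 CPM, a log2 fold change of 0.64 (SE 0.116, adjusted p = 0.00264). CDKN1B (p27) rose with a log2 fold change of 0.44 (SE 0.083, adjusted p = 0.00359), and CDKN1C (p57) with one of 0.67 (SE 0.086, adjusted p = 2.65e-04). CDKN2C (p18), an inhibitor of CDK4 and CDK6, fell by 0.50 on the log2 scale (SE 0.073, adjusted p = 7.08e-04). In PA-1 1 of 7 rose, beside 4.65% of all genes. This was CDKN1C, which went from 31.9, 29.1 and 26.6 CPM to 64.6, 67.2 and 74.5 CPM (log2 fold change 1.24, SE 0.079, adjusted p = 1.19e-07), and CDKN1C was thus higher in both lines. CDKN2A, among whose products p16 holds RB1 in its active form, and CDKN2B had 0 counts in all 6 SK-OV3 libraries and were not tested there. In PA-1 CDKN2A lay between 8.58 and 13.5 CPM.

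Of 8 corepressor genes that pocket proteins recruit, 2 fell and 2 rose in SK-OV3 and none passed in PA-1. Of 6 genes that act on E2F turnover or serve as cofactors, 4 fell in SK-OV3 and 1 rose in PA-1. Over all genes, 9.56% fell and 10.8% rose in SK-OV3, and 2.48% fell and 4.65% rose in PA-1.

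The target genes of E2F were mostly lower with BAY-850 in SK-OV3, and in PA-1 some were higher. A list of 50 genes of the G1/S transition, most of them E2F targets, held 49 genes that were tested. This list and the G2/M list below were chosen with earlier results of these data known. Their shares are therefore not independent of that knowledge. In SK-OV3 all 49 had a log2 fold change below 0, 35 of them (71.4%) were called lower and none higher, against 9.56% and 10.8% of all genes, and the median was -0.45, against -0.01 over all genes. Among the smallest adjusted p were those of RRM2, a ribonucleotide reductase subunit (-0.84, SE 0.054, adjusted p = 1.50e-06), MCM4, a subunit of the replicative helicase (-0.65, SE 0.059, adjusted p = 2.00e-05), and TYMS, thymidylate synthase (-0.54, SE 0.054, adjusted p = 4.57e-05).

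In PA-1 the same 49 genes had a median log2 fold change of 0.05, against 0.00 over all genes, and 10 of them (20.4%) were called higher and 1 lower, against 4.65% and 2.48% of all genes. The smallest adjusted p were those of POLE, the leading-strand polymerase (0.41, SE 0.067, adjusted p = 0.00172), MCM5, also of the helicase (0.34, SE 0.059, adjusted p = 0.00306), UHRF1, a factor of maintenance DNA methylation (0.36, SE 0.068, adjusted p = 0.00534), and MCM4 (0.29, SE 0.055, adjusted p = 0.00609). Of the 10 called higher in PA-1, 8 were called lower in SK-OV3. Of 707 genes of all kinds called higher in PA-1, 91 were called lower in SK-OV3. The PA-1 count of 10 went to 3 with scaling by library size only and to 5 with each library's GC trend removed. It went to 4 without PA-1 DMSO replicate 2 and to 5 without PA-1 BAY-850 replicate 2. Genes of all kinds called higher in PA-1 numbered 235 with library size only and 379 with the GC trend removed, in place of 707. They numbered 275 without DMSO replicate 2 and 273 without BAY-850 replicate 2.

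A list of 40 G2/M genes, many of them targets of MuvB with MYBL2 and FOXM1, had a median log2 fold change of -0.27 in SK-OV3, where 24 (60.0%) were called lower and 1 higher, against 9.56% and 10.8% of all genes. The smallest adjusted p were those of KIF20A, a mitotic kinesin (-0.79, SE 0.061, adjusted p = 6.13e-06), CCNB1, cyclin B1 (-0.44, SE 0.049, adjusted p = 9.42e-05), MKI67, the proliferation marker Ki-67 (-0.61, SE 0.075, adjusted p = 1.89e-04), and CDC20, an activator of the anaphase-promoting complex (-0.43, SE 0.056, adjusted p = 2.92e-04). The count went from 24 to 14 with the GC trend removed and to 15 without SK-OV-3 DMSO replicate 2. Genes of all kinds called lower in SK-OV3 went from 1468 to 1050 and to 788 in these fits. In PA-1 the median of the list was -0.06, and 3 of the 40 were called lower and none higher, against 2.48% and 4.65% of all genes. These were NDC80 (-0.39, SE 0.077, adjusted p = 0.00796), TTK (-0.28, SE 0.062, adjusted p = 0.0160) and NUF2 (-0.36, SE 0.087, adjusted p = 0.0244), and the count was 1 without PA-1 DMSO replicate 2 or BAY-850 replicate 2. Genes of all kinds called lower in PA-1 went from 378 to 65 and to 71 in these fits.

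**Figure D4:**
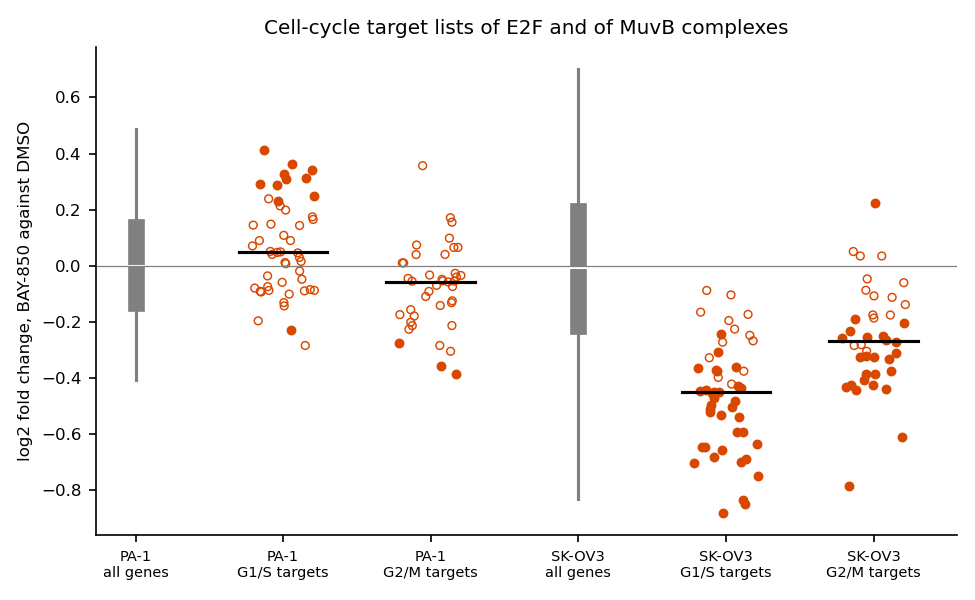
Log2 fold change with BAY-850 against DMSO (vertical axis) for the G1/S and the G2/M target lists in PA-1 and SK-OV3. Each point is a gene, filled where its adjusted p is under 0.05, black lines are medians, and grey bars give the quartiles (thick) and the 5th to 95th percentiles (thin) of all genes tested; every G1/S point in SK-OV3 is below 0 (median -0.45), and the PA-1 points lie around 0 (median 0.05).

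The motif words printed above in the activator promoters were also found in the target lists. Of the 44 G1/S genes with a RefSeq entry, 19 (43.2%) held at least 1 word in the 250 bases before a start, against 2 of 34 G2/M genes (5.88%) and 3.40% of 27305 genes with an entry. Most genes of the G1/S list were chosen as E2F targets, so its share of E2F words is not independent of that choice.

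The genes whose pattern over the 12 libraries was most like that of E2F1 were sought among 12059 genes by the root mean square difference of log2 CPM, after the mean of each line was taken away. Among the closest were FAM101B (0.05), HMGN2 (0.07) and ODC1 (0.07), against a median of 0.28 over all genes compared. Their log2 fold changes in SK-OV3 ranged from -0.76 for ODC1 to -0.67 for HMGN2, and those in PA-1 from -0.08 for ODC1 to 0.04 for HMGN2. The measure rests on both lines' response to BAY-850 and on the spread between replicates, and not on the level of a gene.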

How the data were processed

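RNA of PA-1 and SK-OV3 cells was sequenced in 12 libraries. The values the authors deposited are expected counts from RSEM, 1 row for each gene symbol, not scaled between libraries. The submitters' processing notes name Bowtie2 2.1.0, RSEM 1.2.15 and hg38, and the annotation is not given in the sources used here. RSEM divides reads that fit several genes, so the counts of genes with near-identical copies are estimates. The library protocol names oligo-dT selection and strand-specific synthesis, while the design text names ribosomal RNA depletion.

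Expected counts were rounded to whole numbers and given TMM factors (edgeR 4.0.16, R 4.3.3). Genes were filtered by edgeR's filter on low counts and compared by its quasi-likelihood test, and p-values were adjusted after Benjamini and Hochberg over all genes tested, with a threshold of 0.05 and no term for the replicate number. CPM use factors over all 12 libraries. Each line was fitted alone, the lines were compared with DMSO only, and the difference of the response was an interaction term over all libraries. The replicates are called biological in the design text, and nothing more is said of their origin. Standard errors are the log2 fold change divided by the square root of F, and 95% intervals are 1.96 standard errors to either side. That factor makes no allowance for the few libraries, so the intervals are approximate and somewhat narrower than the test implies. Lengths come from GENCODE on GRCh38. Motif words were sought in RefSeq promoter sequences of GRCh38.p14. The scripts were tested on simulated data.

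The 10 genes and the gene lists were chosen with earlier results of these data known. Named beyond the 10 genes are the DP and MuvB genes, the kinases, cyclins and CDK inhibitors past the threshold in either line, up to 4 targets per list and line with the smallest adjusted p, and the 5 genes most like E2F1, of which 2 genes are not reported here. Alternatives were scaling by library size or RLE factors, no filter or at least 10 counts in every library, DESeq2 1.42.0, limma-voom (limma 3.58.1), the replicate number as a block, removal of each library's GC trend, all libraries in one fit, and leaving out each library. The count of G1/S targets called higher in PA-1 was followed over these settings after the data were seen.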

Additional observations from a re-analysis of the deposited data

Results flagged for a closer look

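Of 39 named genes tested for a difference of the response between the lines by edgeR's quasi-likelihood interaction test over 12 libraries, 20 passed an adjusted p of 0.05. Many of these genes were named because they passed in 1 of the lines in the same data, so this count is not independent of that choice. Over all genes 7.77% were called lower and 6.70% higher. The values here are the log2 fold change in SK-OV3 minus that in PA-1. Among the E2F and RB family genes they were E2F1 (-0.66), E2F2 (-1.46) and E2F5 (0.41). E2F5, which makes up far less of the E2F RNA in SK-OV3 than in PA-1, was the only one of the 3 to respond higher in SK-OV3.

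Among the partners, TFDP1 (-0.28), RBBP4 (-0.46), MYBL2 (-0.75) and FOXM1 (-0.74) responded lower in SK-OV3. Among the CDK inhibitors CDKN1A responded higher in SK-OV3 (0.61, adjusted p = 0.0447), while CDKN1C (-0.58) and CDKN2C (-0.89) responded lower. CDKN2C rested on 9 to 18 counts per library in PA-1.

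Among the G1/S targets the differences were -0.87 for POLE, -0.80 for MCM5, -1.06 for UHRF1, -0.95 for MCM4, -1.01 for RRM2 and -0.60 for TYMS. Among the G2/M targets they were -0.87 for KIF20A, -0.32 for CCNB1, -0.78 for MKI67 and -0.54 for CDC20. NDC80, TTK and NUF2, called in PA-1, were not shown to differ between the lines (0.09, 0.20 and 0.21, adjusted p of at least 0.143).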

How the results depend on the processing

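Of the called log2 fold changes of the 10 genes over all comparisons, 237 values under other settings kept their direction and stayed past the threshold. Another 9 kept their direction and missed it, and none changed sign. These counts pool the treatment calls with the difference of the response and with the lines compared under DMSO. Of the BAY-850 calls in SK-OV3, E2F1 and E2F2 passed in all 15 other settings, E2F8 in 12 and E2F5 in 11. Of values not called, 343 kept sign and side, 12 passed the threshold and 38 changed sign. The cause of these shifts was not tested. In PA-1 the sign changed with scaling by library size only for E2F4 (-0.026) and RBL2 (-0.0092), and with the GC trend removed for E2F4 (-0.085), E2F5 (0.010), RB1 (0.0096) and RBL1 (0.030). In SK-OV3 it changed with the GC trend removed for E2F7 (0.061) and RBL1 (0.063). The difference between the lines changed sign for RBL1 with library size only (0.041), RLE factors (0.0135), no filter (0.0021), at least 10 counts (0.0246), DESeq2 (0.0109), limma-voom (0.0034) and the GC trend removed (0.043), and for E2F4 with the GC trend removed (0.0152).

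Leaving out each library gave log2 fold changes in PA-1 from -0.0502 to 0.0379 for E2F1, -0.0844 to 0.0359 for E2F3, -0.0443 to 0.0602 for E2F4, -0.34 to 0.0752 for E2F8, -0.13 to 0.0321 for RBL1 and -0.0599 to 0.14 for RBL2, and in SK-OV3 from -0.0903 to 0.0764 for E2F7 and -0.35 to 0.11 for RBL1. The difference between the lines ranged from -0.30 to 0.15 for RBL1. The count of the 10 genes called in SK-OV3 ranged from 2 to 5. The PA-1 counts ranged from 0 to 1 for G1/S targets called lower, from 4 to 10 for those called higher and from 1 to 5 for G2/M targets called lower, and the SK-OV3 count of G2/M targets called lower ranged from 15 to 28. Genes of all kinds called in PA-1 ranged from 65 to 418 lower and from 273 to 810 higher. Those in SK-OV3 ranged from 788 to 1852 lower and from 993 to 2050 higher.

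G1/S targets called lower in PA-1 were 0 with library size only, with the replicate block, with the GC trend removed and with all 12 libraries in one fit, and those called higher were 3 with library size only and 5 with the GC trend removed. G2/M targets called lower were 7 with no filter, 6 with DESeq2 and 1 with the GC trend removed in PA-1, and 14 with the GC trend removed in SK-OV3. Genes of all kinds called in PA-1 with the GC trend removed were 167 lower and 379 higher. Those called lower in PA-1 were 588 with no filter, 633 with DESeq2, 307 with the replicate block and 214 with all 12 libraries in one fit. Over all genes the split of lower and higher calls moved from 378 and 707 to 231 and 235 with library size only in PA-1, from 1468 and 1662 to 1050 and 2029 with the GC trend removed in SK-OV3, and for the difference between the lines from 1307 and 1128 to 773 and 1062 with library size only and to 898 and 1526 with the GC trend removed.

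Samples with the same replicate number did not deviate together (correlations from -0.08 to 0.04). Samples with unlike numbers gave correlations from -0.12 to 0.11. The check thus gave no sign of pairing by number, and with few replicates it cannot exclude it. With the replicate number as a block, 4 of the 10 genes were called in SK-OV3 (E2F1 -0.67, adjusted p = 7.87e-04) and 0 in PA-1, and no call of the 10 genes changed. Counts of 80 to 233 per library for E2F2 and E2F8 in PA-1 limit their precision, as the wide intervals show.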
